A study of Mus musculus with 4 samples.

Results

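The genes described here are 41 that fold, translocate, degrade and watch over proteins in the endoplasmic reticulum (ER), taken by symbol from the 27998 genes counted in each cell. They fall into 16 chaperones and folding enzymes, 8 genes of ER-associated degradation, 12 of the translocon and signal peptidase, and 5 stress sensors (*Ern1*, *Ern2*, *Atf6*, *Eif2ak3* and *Xbp1*, the last a transcription factor that the IRE1 kinases switch on). Single cells came from enriched small intestinal crypts of 8-week-old mice, sorted as live epithelial cells positive for EpCAM and negative for CD45, and went through droplet 3′ sequencing (10x Genomics, chemistry version 2). Both groups carry loxP sites around exon 1 of *Slc7a5*, an amino acid transporter gene. The 2 libraries labelled *Slc7a5* fl/fl are the controls, and the 2 labelled *Slc7a5* IEC-KO come from mice that also carry Cre under the villin promoter, which is active throughout the intestinal epithelium and not in Paneth cells alone. The sample records name 4 mice but do not say how they were divided among the libraries. The p-values for genotype within a set of cells therefore measure only the spread between libraries (n = 2 per genotype), which may be technical. Tests that compare sets of cells of the same libraries measure how the difference within a library varies from library to library, which may be technical too.

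Secreted and membrane proteins enter the ER through the SEC61 channel, lose their signal sequence to the signal peptidase, and are folded by chaperones and disulfide isomerases. Chains that fail to fold are pulled back to the cytosol and degraded. When unfolded proteins build up, the sensors IRE1 (*Ern1*, *Ern2*), ATF6 and PERK (*Eif2ak3*) slow translation and raise the genes of folding and degradation. Paneth cells, which fill granules with antimicrobial proteins at the base of the crypt, and goblet cells, which make mucin, rest on this machinery, and *Ern2* is the IRE1 of mucous epithelium.

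Promoter stretches are shown for members with the ER stress response element (ERSE), since this is the site through which ATF6 and XBP1 are known to act and since members that carry it moved in both directions. In the Paneth class the only one called higher was *Hspa5*, by a call lost under several other settings given below. RefSeq promoter windows of GRCm38.p6, from 250 bases before the start to 50 after it, matched 32 of the 41 members. ERSE was searched on both strands as CCAAT, then 9 bases of any kind, then CCACG. It stood in 9 of the 32 members (28.1%) and in 37 of all 27025 genes with a window (0.137%). Of the 14 chaperones with a window, 7 held it (50%): *Calr*, *Canx*, *Creld2*, *Dnajc3*, *Hsp90b1*, *Hspa5* and *Pdia6*. *Derl3* and *Syvn1* were the other two, and the 8 translocon and signal peptidase genes and the 3 sensors with a window had no match. ERSE-II, which is ATTGG, 1 base of any kind and CCACG, matched *Herpud1* and *Dnajb11* against 0.0444% of all genes. The site of spliced XBP1 and ATF6 spelled TGACGTGG matched no member and 0.714% of all genes. The amino acid response element, spelled TGATG, 1 base of any kind and AA, matched *Herpud1* alone (3.12% of the members, against 4.51% of all genes). In the lines below, read 5′ to 3′ on the strand of the gene, capitals mark the element, and in *Calr*, *Derl3* and the second *Hsp90b1* line it lies on the opposite strand and so reads CGTGG to ATTGG.
Hspa5 (chr2:34772005-34772063, plus strand): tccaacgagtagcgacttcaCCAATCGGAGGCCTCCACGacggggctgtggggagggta
Hsp90b1, farther element (chr10:86705618-86705676, minus strand): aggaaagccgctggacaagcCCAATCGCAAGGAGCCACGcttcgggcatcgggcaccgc
Hsp90b1, nearer element (chr10:86705513-86705571, minus strand): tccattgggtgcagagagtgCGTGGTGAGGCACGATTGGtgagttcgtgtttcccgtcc
Calr (chr8:84847055-84847113, minus strand): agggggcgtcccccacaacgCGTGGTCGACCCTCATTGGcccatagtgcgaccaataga
Derl3 (chr10:75893222-75893280, plus strand): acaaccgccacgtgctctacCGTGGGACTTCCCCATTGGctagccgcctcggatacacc
Herpud1, ERSE-II (chr8:94386357-94386407, plus strand): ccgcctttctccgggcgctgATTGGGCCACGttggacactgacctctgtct

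Cells were put into 2 classes by how much of their captured transcripts, counted as UMIs (unique molecular identifiers), came from the 13 alpha-defensin symbols starting with Defa. The Paneth class (30% or more) held 2020 and 1950 cells in the libraries labelled fl/fl and 2019 and 2336 in those labelled IEC-KO. The others class (under 20%) held 1493 and 1178 against 6680 and 6090, and the 2732 cells in between were left out. Median depth was 46965 and 52851.5 UMIs per Paneth class cell in fl/fl but 13782 and 20159 in IEC-KO, and 10598 and 11502 against 5750.5 and 8110.5 in the others class. The lowest depth of any cell was 8909 and 9670 UMIs in fl/fl but 3843 and 5858 in IEC-KO. At a common lower limit of 9670 UMIs, the others class kept 1083 and 1178 cells in fl/fl and 666 and 1711 in IEC-KO. The summed level of 8 Paneth markers was 60126 to 80443 CPM (counts scaled to a fixed library size) in the Paneth class and 27399 to 32235 in the others class, where Defa transcripts still made up 5.70 to 6.64% of UMIs. *Reg3g* and *Mptx1* were higher in the others class in every library, as was *Nupr1* in IEC-KO. In the Paneth class *Lyz1* had 36009.4 and 32850.7 CPM in fl/fl and 18449.9 and 14212.5 in IEC-KO. *Ang4* and *Mptx2* were lower in IEC-KO too, and *Mmp7*, *Itln1*, *Mptx1*, *Reg3g* and *Nupr1* were higher. The part of these markers was not tested. Of 6 plasma and other immune markers found in the files, the defining *Jchain* and *Mzb1* had 0 to 2 UMIs per library and class. In IEC-KO many cells lie near the limit: 314 and 314 Paneth class cells had a Defa share of 30 to 32%, against 37 and 23 in fl/fl. *Slc7a5* itself had 91 and 84 UMIs in the Paneth class of fl/fl and 128 and 252 in IEC-KO, or 1.16 and 1.04 against 3.42 and 3.73 CPM (log2 fold change 1.71, SE 0.15, adjusted p = 5.31e-09). That goes against the label, but the 3′ tags lie outside the floxed exon and so do not check the deletion. The libraries are therefore named by their labels throughout.

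Values below are CPM after TMM scaling (trimmed mean of M values), which sets the middle of all genes to no change, and every test is the quasi-likelihood test of edgeR with Benjamini-Hochberg adjustment over all genes tested. The scale matters in the Paneth class. With library size alone, the median of all genes was 0.62 higher on the log2 scale in IEC-KO, and members whose direction turns on that scale are named where they are described. The same shift was -0.15 in the others class. Defa genes took 36.8 and 37.2% of Paneth class UMIs in IEC-KO against 41.2 and 44.0% in fl/fl, and what makes up the shift was not tested.

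In the Paneth class 12 of the 41 members rose in IEC-KO (29.3%, with 20.2% of all 12492 genes tested called higher) and 6 fell (14.6%, with 19.8% of all genes called lower). Of the 5 stress sensors 4 rose and *Eif2ak3* did not pass the test (log2 -0.39), with a median log2 fold change of 0.74 for the group, while that of all 41 members was 0.01. The degradation genes split, with 3 higher and 2 lower, and so did the chaperones, with 3 higher and 3 lower. Among the translocon and signal peptidase genes 2 were higher and 1 was lower. With library size alone 38 members were higher and 1, *Derl3*, was lower, beside 8795 and 454 of all 12492 genes. All 41 members passed the filter on low counts in this class. Alongside the genotype, the summed level of 8 genes of dissociation stress was 57.4 and 53.0 CPM of the class's UMIs in fl/fl and 101 and 104 in IEC-KO, and that of 6 goblet markers was 38955 and 34815 against 44247 and 49175. Among the goblet markers *Spink4* (22778 and 19623 against 28498 and 31052), *Muc2* and *Tff3* were higher in IEC-KO. *Zg16* (3859 and 3637 against 2785 and 2958) and *Clca1* were lower, and *Fcgbp* overlapped. The sum of 7 enterocyte markers was 1053 and 992 CPM against 547 and 634, and that of 6 enteroendocrine markers 94.6 and 85.8 against 140.1 and 155. That of 5 stem cell markers was 43.4 and 43.1 against 58.7 and 64.5. *Slc12a2* made up most of it (33.2 and 31.5 against 48.2 and 54.1). *Lgr5* was higher in IEC-KO too, while *Olfm4*, *Ascl2* and *Gkn3* were lower. None of these sums is TMM-scaled, so they include the shift of all genes given above. The part of these markers in the results was not tested.

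**Figure D1:**
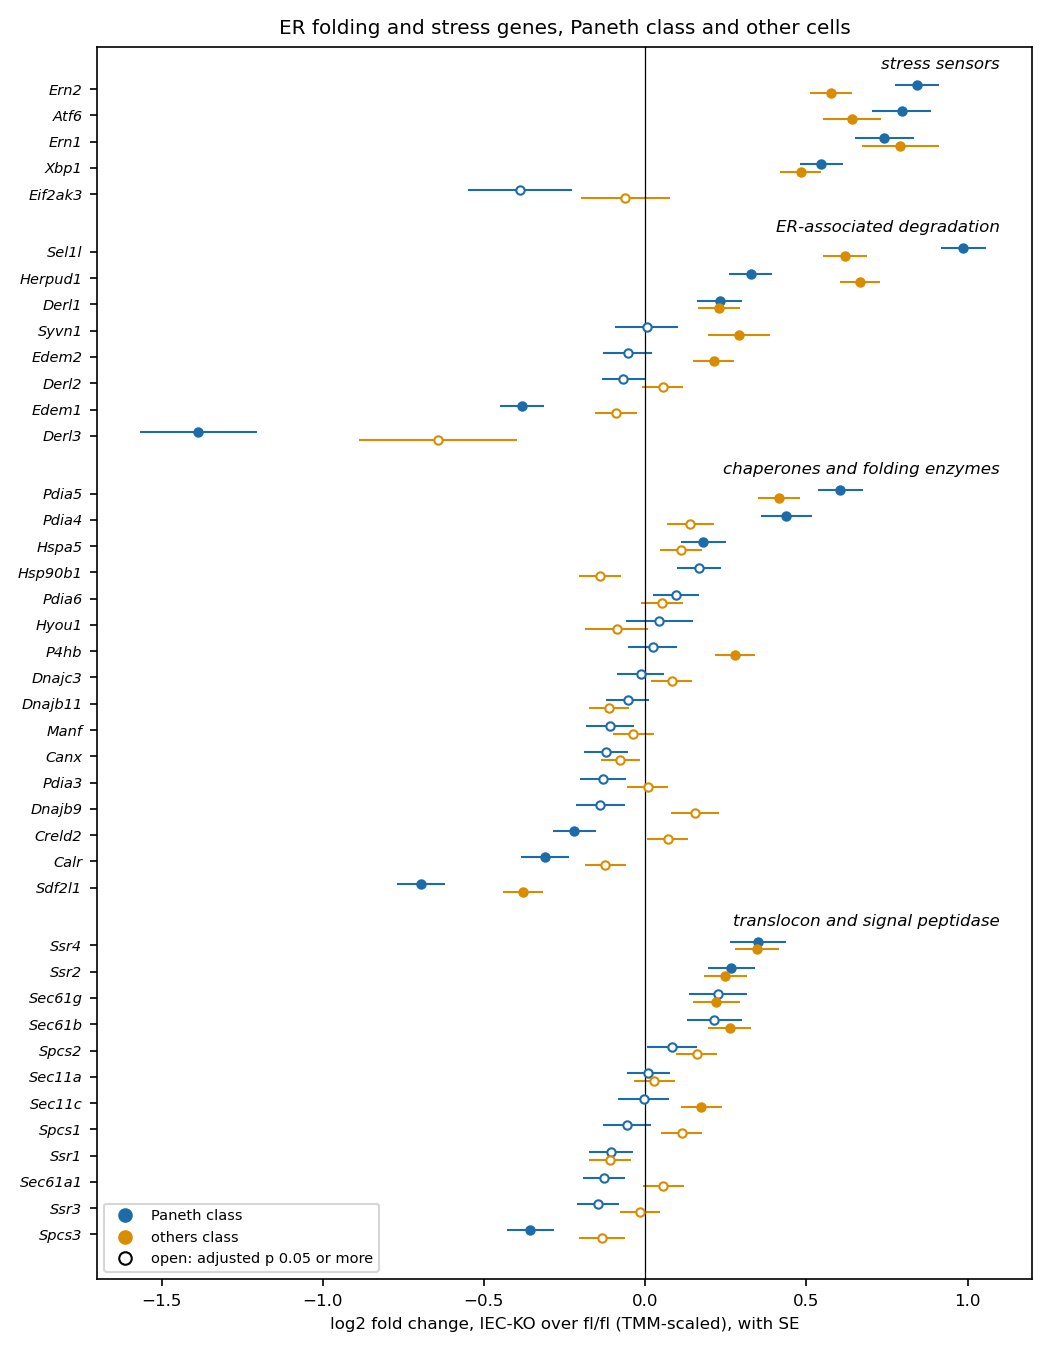
Log2 fold change (IEC-KO over fl/fl, TMM-scaled, with its SE) of each of the 41 members in the Paneth class (blue) and the others class (orange), ordered within the 4 groups; filled points passed the edgeR test at an adjusted p under 0.05. Sensors lie to the right apart from *Eif2ak3*, and *Sel1l* (0.99) and *Derl3* (-1.39) are the extremes in the Paneth class.

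Among the sensors, *Ern2* (chr7:122169893-122186207, minus strand, GRCm38) had 18.9 and 19.9 CPM in the Paneth class of fl/fl and 35.2 and 34.3 in IEC-KO. The 2 IEC-KO libraries lay close together and well above both controls, a fold change of 1.79 (log2 0.84, SE 0.07, adjusted p = 1.97e-09). *Ern1*, the IRE1 gene expressed in most tissues, had 4.35 and 4.73 CPM against 7.44 and 7.71, a log2 fold change of 0.74 (SE 0.09). *Atf6*, the sensor that is cut in the Golgi to free a transcription factor, had 4.16 and 4.51 CPM against 7.41 and 7.62, a log2 fold change of 0.80 (SE 0.09). Neither gene's groups overlapped. *Xbp1* had 49.1 and 47.1 CPM against 71.6 and 69.1, a log2 fold change of 0.55 (SE 0.07, adjusted p = 8.75e-07). Counts from the 3′ end do not separate its spliced from its unspliced form. *Eif2ak3*, the PERK gene, went the other way with 2.02 and 1.86 CPM against 1.36 and 1.55 (51 and 105 UMIs in IEC-KO), and its log2 fold change of -0.39 (SE 0.16) did not pass the test (adjusted p = 0.062). By library size alone its value was 0.23. With each cell thinned to 2000 UMIs, *Atf6* (log2 0.39, adjusted p = 0.39) and *Ern1* (log2 0.88, adjusted p = 0.054) no longer passed.

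The 4 sensors that passed in the Paneth class also passed in the others class, where 17.0% of all 12377 genes were called higher. There *Ern2* had 79.3 and 72.9 CPM in fl/fl and 112 and 115 in IEC-KO (log2 fold change 0.58, SE 0.07), and *Xbp1* had 151 and 141 against 200 and 208 (log2 0.48, SE 0.06). *Ern1* had 6.12 and 6.02 CPM against 9.70 and 11.3 (log2 0.79, SE 0.12), and *Atf6* had 10.1 and 10.8 against 15.7 and 16.8 (log2 0.64, SE 0.09). *Eif2ak3* had 6.23 and 5.05 against 5.21 and 5.65 CPM, with overlapping groups (log2 -0.06, SE 0.14, adjusted p = 0.77). The largest change was that of *Ern2* in the Paneth class and that of *Ern1* in the others class, and the smallest past the test was that of *Xbp1* in both.

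**Figure D2:**
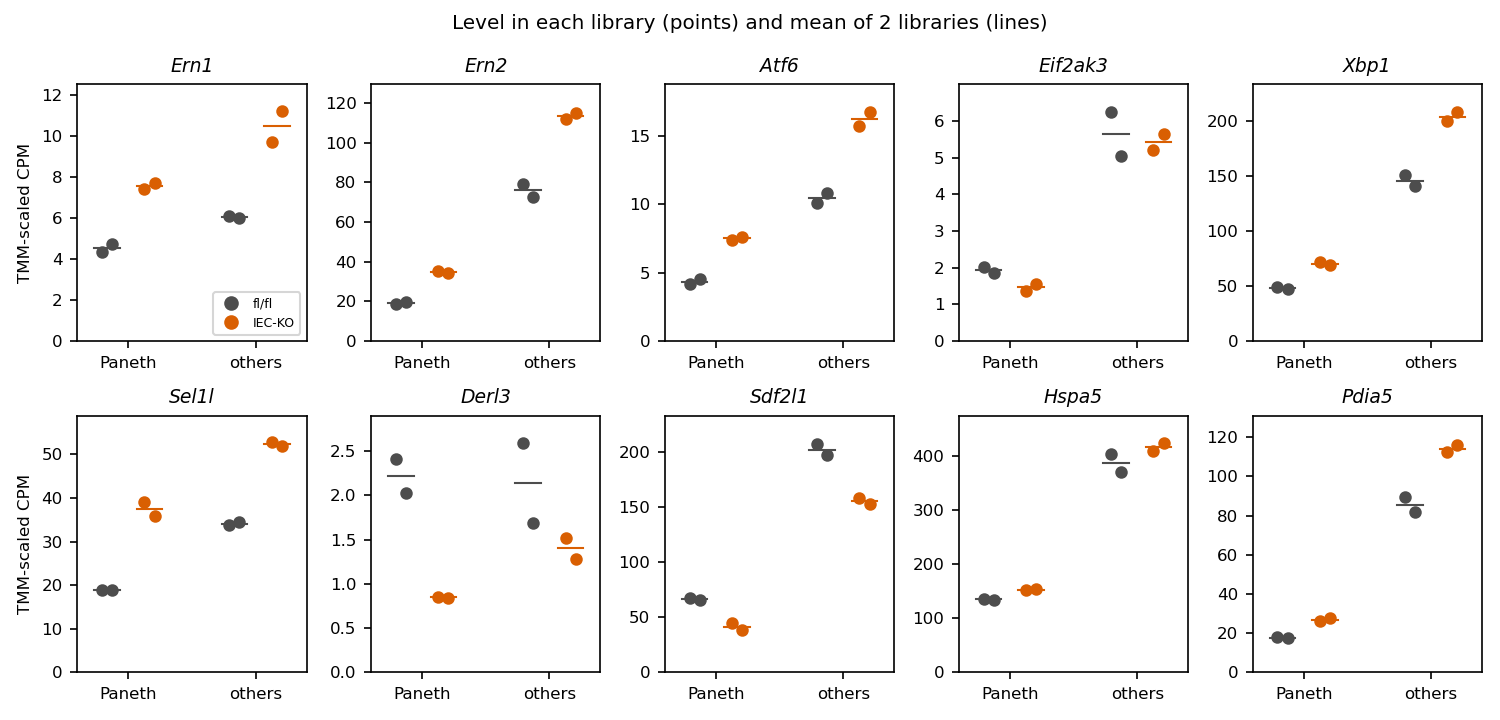
TMM-scaled CPM of the 5 sensors and 5 further members in each library (points; grey fl/fl, orange IEC-KO) with the mean of 2 libraries (lines), in the Paneth and the others class; each panel starts at 0. In the others class the values of the 2 genotypes overlap for *Eif2ak3*. The 2 classes were scaled separately, so heights compare within a class.

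ER-associated degradation held both extremes. *Sel1l* (chr12:91806043-91849157, minus strand), the adaptor that holds the HRD1 ubiquitin ligase complex together, had 18.9 and 18.8 CPM in the Paneth class of fl/fl and 39.2 and 35.8 in IEC-KO. That is 1.98-fold higher (log2 0.99, SE 0.07, adjusted p = 2.65e-10). Its partner in the complex, the ligase *Syvn1*, had 5.43 and 5.55 CPM against 6.05 and 5.14, with overlapping groups and a log2 fold change of 0.01 (SE 0.10, adjusted p = 0.97). *Herpud1*, a membrane protein that brings substrates to the same ligase, rose from 52.1 and 49.0 to 64.9 and 62.0 CPM (log2 0.33, SE 0.07, adjusted p = 0.00053). *Derl1*, a rhomboid-like protein of the retrotranslocation channel, had 30.9 and 30.4 CPM against 38.0 and 34.1 (log2 0.23, SE 0.07, adjusted p = 0.011), and lost the call when either fl/fl library or the first IEC-KO library was left out (adjusted p = 0.085, 0.11 and 0.055). With cells thinned to 2000 UMIs the log2 fold change of *Derl1* was 0.099 (adjusted p = 0.665).

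*Derl3*, the derlin of highly secretory cells, fell most of all members. Its 190 and 164 UMIs in fl/fl compare with 32 and 57 in IEC-KO, or 2.41 and 2.03 against 0.86 and 0.84 CPM, a log2 fold change of -1.39 (SE 0.18, adjusted p = 2.59e-06). It is also the member whose fall held by library size alone (log2 -0.77, adjusted p = 0.000869). *Derl3* is abundant in plasma cells, and the plasma cell markers named above were at or near 0 in every library. The part of such cells in the counts of *Derl3* was not tested. *Edem1*, a lectin that trims mannose from chains bound for degradation, fell from 33.7 and 31.8 to 25.7 and 24.7 CPM (log2 -0.38, SE 0.07, adjusted p = 0.00012), but by library size alone it was 0.24 higher, and with cells thinned to 2000 UMIs it did not pass (log2 -0.31, adjusted p = 0.103). Its relative *Edem2* (log2 -0.05) and *Derl2* (log2 -0.07) did not pass the test.

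In the others class 5 degradation genes rose and the group's median was 0.22, with 39.0% of all 41 members called higher (17.0% of 12377 genes) and 2.44% lower (16.7% of genes). *Herpud1* rose most there, from 84.7 and 85.0 to 137 and 132 CPM (log2 0.67, SE 0.06), followed by *Sel1l*, from 33.7 and 34.4 to 52.8 and 51.9 (log2 0.62, SE 0.07). *Syvn1* (log2 0.29), *Derl1* (0.23) and *Edem2* (0.21) made up the rest of the calls. *Derl3* had 2.59 and 1.68 CPM against 1.52 and 1.28, a log2 fold change of -0.64 (SE 0.25, adjusted p = 0.051). Fewer of the 16 higher calls, and fewer higher calls among all genes, were made when either fl/fl library was left out. Thinning cells to 2000 UMIs left 9, with 806 of 10599 genes called higher. By library size alone 8 members were higher and 11 lower in this class, beside 1172 and 3787 of 12377 genes. Other markers moved with the genotype here: 6 proliferation markers summed to 1311 and 1324 CPM of UMIs in fl/fl and 638 and 675 in IEC-KO, the enterocyte markers to 3758 and 4032 against 2205 and 1981, and the enteroendocrine markers to 104 and 119.5 against 227 and 252. Their part was not tested.

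Chaperones and folding enzymes that passed the test split evenly between the directions. *Hspa5*, the HSP70 of the ER known as BiP and the usual readout of the unfolded protein response, had 136 and 134 CPM in the Paneth class of fl/fl and 152 and 154 in IEC-KO, 1.13-fold higher (log2 0.18, SE 0.07, adjusted p = 0.045). The call was lost in 8 of the alternatives, among them leaving out either fl/fl library (adjusted p = 0.261 and 0.305) and a Defa limit of 40% (adjusted p = 0.254). *Hsp90b1*, the ER HSP90, was at 81.9 and 77.3 against 88.9 and 90.0 CPM and did not pass (log2 0.17, adjusted p = 0.055). *Pdia5*, a disulfide isomerase that can act on ATF6, rose from 18.3 and 17.3 to 26.1 and 27.8 CPM (log2 0.60, SE 0.07, adjusted p = 4.06e-07). *Pdia4*, a further isomerase, had 13.6 and 13.6 CPM against 16.8 and 19.7 (log2 0.44, SE 0.08), but when each cell was thinned to 2000 UMIs, so that every cell counts alike, its value was -0.13.

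The clearest fall among the chaperones was that of *Sdf2l1* (chr16:17130138-17132383, minus strand), which works with BiP and ERdj3 to keep unfolded chains soluble. It had 67.1 and 65.8 CPM in fl/fl and 44.5 and 38.0 in IEC-KO (log2 -0.69, SE 0.07, adjusted p = 1.45e-07). *Calr*, the lectin calreticulin that binds glycoproteins and calcium, fell from 247 and 249 to 194 and 206 CPM (log2 -0.31, SE 0.08, adjusted p = 0.0022). *Creld2*, a disulfide isomerase known to be induced by ER stress, fell from 45.4 and 45.6 to 40.1 and 38.2 (log2 -0.22, SE 0.07), a call that was lost without either fl/fl library and at a Defa limit of 40%. By library size alone *Calr* (0.31) and *Creld2* (0.40) were above 0, and *Sdf2l1* (-0.08) no longer passed the test. The other 10 chaperones, which include the lectin *Canx*, the isomerases *Pdia3*, *Pdia6* and *P4hb*, the J-domain proteins *Dnajb9*, *Dnajb11* and *Dnajc3*, the secreted folding factor *Manf* and the exchange factor *Hyou1*, lay between -0.14 (*Dnajb9*) and 0.17 (*Hsp90b1*).

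In the others class *Sdf2l1* was again lower, at 207 and 197 against 158 and 152 CPM (log2 -0.38, SE 0.06, adjusted p = 9.98e-05), and it was the 1 member called lower there. *Pdia5* (89.5 and 81.7 against 112 and 116 CPM; log2 0.41, SE 0.07) and *P4hb*, the founding disulfide isomerase (460 and 451 against 551 and 555 CPM; log2 0.28, SE 0.06), were higher. *Hspa5* had 404 and 370 against 411 and 425 CPM in that class (log2 0.11, SE 0.07, adjusted p = 0.21).

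Grouped by promoter, the 9 members with ERSE counted 1 higher (*Hspa5*) and 3 lower (*Calr*, *Creld2* and *Derl3*) in the Paneth class, with a median log2 fold change of -0.01, and the 23 members whose window lacks these letters counted 7 higher and 2 lower (median 0.01). All genes were called higher at 20.2% and lower at 19.8% in that class. In the others class the ERSE members counted 1 higher, *Syvn1*, against 10 of the 23, with 17.0% of all genes called higher. The 9 members with no window counted 4 higher and 1 lower in the Paneth class and 5 higher in the others class. *Herpud1* and *Dnajb11*, which hold ERSE-II, are among the 23. These are descriptions of small groups, with no test.

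At the translocon, *Spcs3*, a subunit of the signal peptidase, fell from 28.5 and 27.5 to 23.5 and 20.5 CPM in the Paneth class (log2 -0.36, SE 0.07, adjusted p = 0.00052; 0.26 by library size alone). *Ssr4* and *Ssr2*, subunits of the translocon-associated protein complex that helps chains through SEC61, rose from 447 and 464 to 619 and 543 CPM (log2 0.35, SE 0.09) and from 157 and 159 to 197 and 183 (log2 0.27, SE 0.07). *Ssr2* lost its call without either fl/fl library (adjusted p = 0.11 and 0.077), and *Ssr4* without the first and with cells thinned to 2000 UMIs (log2 0.22, adjusted p = 0.116). The small channel subunits *Sec61b* and *Sec61g* stood at the threshold with log2 fold changes of 0.21 and 0.23 (adjusted p = 0.051 and 0.050), and with DESeq2 both passed (adjusted p = 0.014 and 0.025). The channel itself, *Sec61a1*, had -0.13 and the catalytic peptidase subunits *Sec11a* and *Sec11c* 0.01 and -0.01, none past the test. Outside the Paneth class, in the others class, 5 of the 12 rose (41.7%, with 17.0% of all 12377 genes called higher). They were *Ssr4* (log2 0.35), *Sec61b* (0.26), *Ssr2* (0.25), *Sec61g* (0.22) and *Sec11c* (0.17).

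As a share of all UMIs that were not Defa, the 41 members together took 0.591 and 0.571% in the Paneth class of fl/fl and 0.873 and 0.875% in IEC-KO, against 1.26 and 1.21% and 1.24 and 1.24% in the others class. The ratio of the genotype means was 1.50 in the Paneth class and 1.00 in the others class. By group, the Paneth class ratio was 2.17 for the sensors, 1.58 for the translocon and signal peptidase, 1.57 for degradation and 1.35 for the chaperones. These shares carry no test and are not TMM-scaled, so they include the shift of all genes. By library size alone, Defa UMIs included, the median gene moved by 0.62 on the log2 scale in the Paneth class. In the others class it moved by -0.15. With TMM scaling the median log2 fold change of the 41 members in the Paneth class was 0.005. In cells with a Defa share of 40% or more, away from the limit of the class, the ratio was 1.97 for the sensors and 1.29 for the chaperones. In fl/fl the chaperones took 0.387 and 0.390% in cells of 20 to 30% Defa and 0.226 and 0.237% in cells of 30 to 40%. In IEC-KO they took 0.336 and 0.353% and then 0.291 and 0.301%, a smaller step between the same bins. The bin of 20 to 30% held only 120 and 89 cells in fl/fl, against 1305 and 1218 in IEC-KO. Its median depth was 13778 and 13273 UMIs in fl/fl, far below that of the fl/fl Paneth class, and 9167 and 12659 in IEC-KO. The part of these differences in the step was not tested. Among cells of the others class with a Defa share of 5 to 20%, the chaperones took less in IEC-KO (0.395 and 0.411%) than in fl/fl (0.492 and 0.482%) while the sensors took more (0.0348 and 0.0369% against 0.0302 and 0.0300%).

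**Figure D3:**
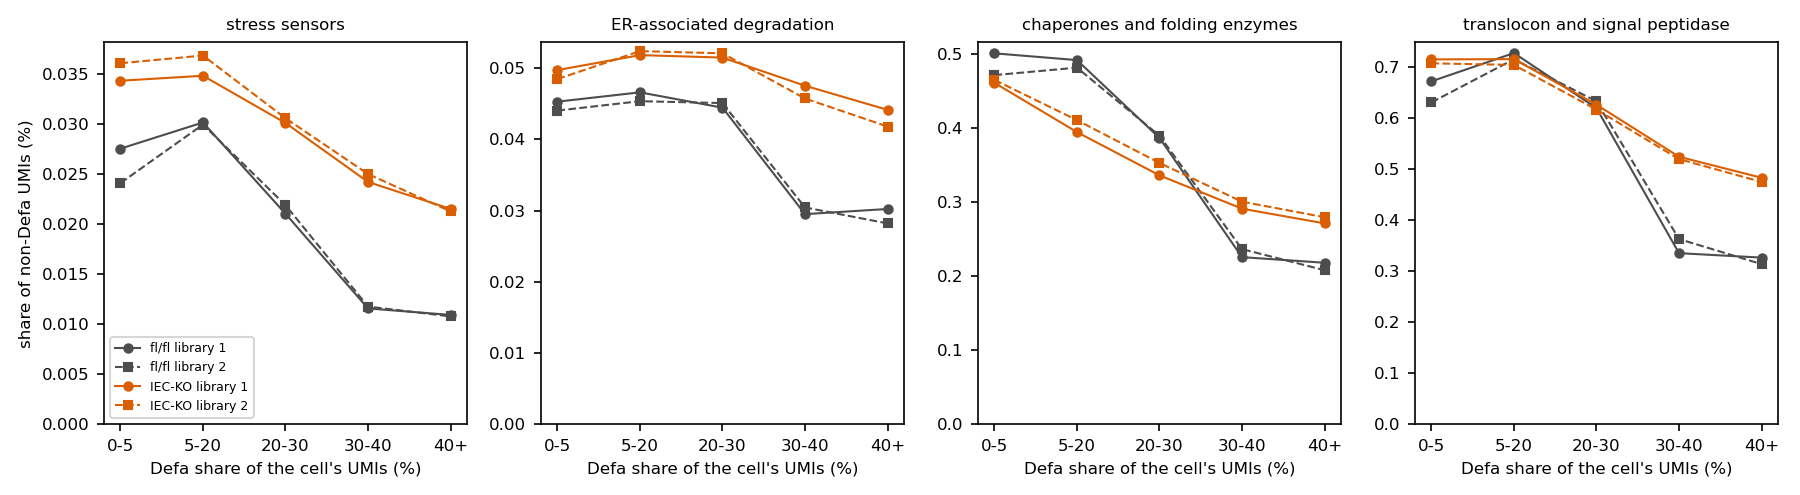
Share of non-Defa UMIs (percent, axes from 0) taken by each of the 4 groups of members in cells binned by their Defa share, for each library (grey fl/fl, orange IEC-KO; circles library 1, squares library 2). At a Defa share of 30% or more IEC-KO lies above fl/fl in all 4 groups, and below 30% the chaperones lie lower in IEC-KO while the sensors lie higher. The shares are not TMM-scaled and include the shift of all genes.

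The genotypes were also set against each other within the others class, split by the share of UMIs on 6 goblet markers at 4%, a limit set after the data were seen. Goblet-marker-high cells numbered 1132 and 868 in fl/fl and 5812 and 5410 in IEC-KO, and goblet-marker-low cells 361 and 310 against 868 and 680. The goblet markers summed to 142258 and 142125 CPM of UMIs against 130739 and 130728 in the high cells, and to 16639 and 16044 against 18505 and 23461 in the low ones. In the high cells *Muc2* (4778 and 4705 against 5988 and 6078) and *Spink4* were higher in IEC-KO. *Tff3*, *Zg16*, *Fcgbp* and *Clca1* were lower. In the low cells *Muc2*, *Tff3* and *Spink4* were higher in IEC-KO, *Zg16* was lower, and *Fcgbp* and *Clca1* overlapped. Median depth was 10612.5 and 11473 UMIs per high cell in fl/fl and 5832 and 8197.5 in IEC-KO, and 10542 and 11578.5 against 5326.5 and 7591 per low cell. In the high cells proliferation markers summed to 1080.5 and 1066 CPM in fl/fl and 521 and 567 in IEC-KO, enterocyte markers to 1939 and 1853 against 1121 and 1152, and enteroendocrine markers to 101 and 121 against 183 and 235, and their part in the results below was not tested.

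In goblet-marker-high cells 6 members rose (14.6%, with 13.2% of 12006 genes called higher) and 10 fell (24.4%, with 12.7% called lower). Of the sensors 4 of 5 rose: *Ern1* (5.78 and 6.22 against 10.1 and 11.5 CPM; log2 0.86, SE 0.13), *Atf6* (0.53), *Xbp1* (0.32) and *Ern2* (0.29). *Eif2ak3*, at 7.17 and 6.40 against 5.56 and 5.98 CPM, did not pass (log2 -0.24, SE 0.14, adjusted p = 0.225). With them rose *Sel1l*, from 33.1 and 32.3 to 53.7 and 51.8 CPM (log2 0.69, SE 0.07), and *Herpud1* (0.50). Of the chaperones 5 fell: *Sdf2l1* (log2 -0.63), *Calr* (-0.32), *Hsp90b1* (-0.32), *Dnajb11* (-0.26) and *Manf* (-0.24). *Calr* had 940 and 922 CPM in fl/fl and 744 and 743 in IEC-KO. *Derl3* (-0.89), *Edem1* (-0.28), *Spcs3* (-0.33), *Ssr1* (-0.29) and *Ssr3* (-0.19) were the other falls. In the whole others class *Calr* had been at -0.12 and *Hsp90b1* at -0.14, both uncalled.

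Goblet-marker-low cells, in which 7 enterocyte markers summed to 9430 to 10312 CPM of UMIs in the 4 libraries, gave 6 higher calls among the 39 members tested (15.4%, with 2.26% of 10086 genes called higher), and 1.09% of all genes were called lower. The 6 were *Ern2* (9.17 and 10.2 against 19.1 and 23.6 CPM; log2 1.15, SE 0.18, adjusted p = 0.0037), *Pdia5* (14.5 and 10.9 against 21.1 and 24.7 CPM; log2 0.85, SE 0.17), *Ssr4* (0.37), *Calr* (0.29), *Sec61b* (0.28) and *Hsp90b1* (0.28). *Derl3* and *Eif2ak3* did not pass the filter on low counts there. *Sel1l*, at 38.4 and 43.9 against 39.3 and 41.6 CPM, overlapped between the groups (log2 -0.02, SE 0.11, adjusted p = 0.96), and *Sdf2l1* was at 0.20 (adjusted p = 0.28). At a limit of 2, 6 or 10% in place of 4%, the number of members called higher was 3, 14 and 21. The number of all genes called higher rose along with it, from 74 of 9645 to 612 of 10596 and 1607 of 11494. At 4% both numbers fell when an fl/fl library was left out and rose when an IEC-KO library was. Enteroendocrine markers also moved in these cells, with 113 and 115 CPM of UMIs in fl/fl and 557 and 410 in IEC-KO for 6 genes, as did 5 tuft markers (53.7 and 79.3 against 184 and 114) and the proliferation markers (2049 and 2039 against 1510.4 and 1647), and their part was not tested. Whether the change in the high cells differs from that in the low cells was not tested.

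**Figure D4:**
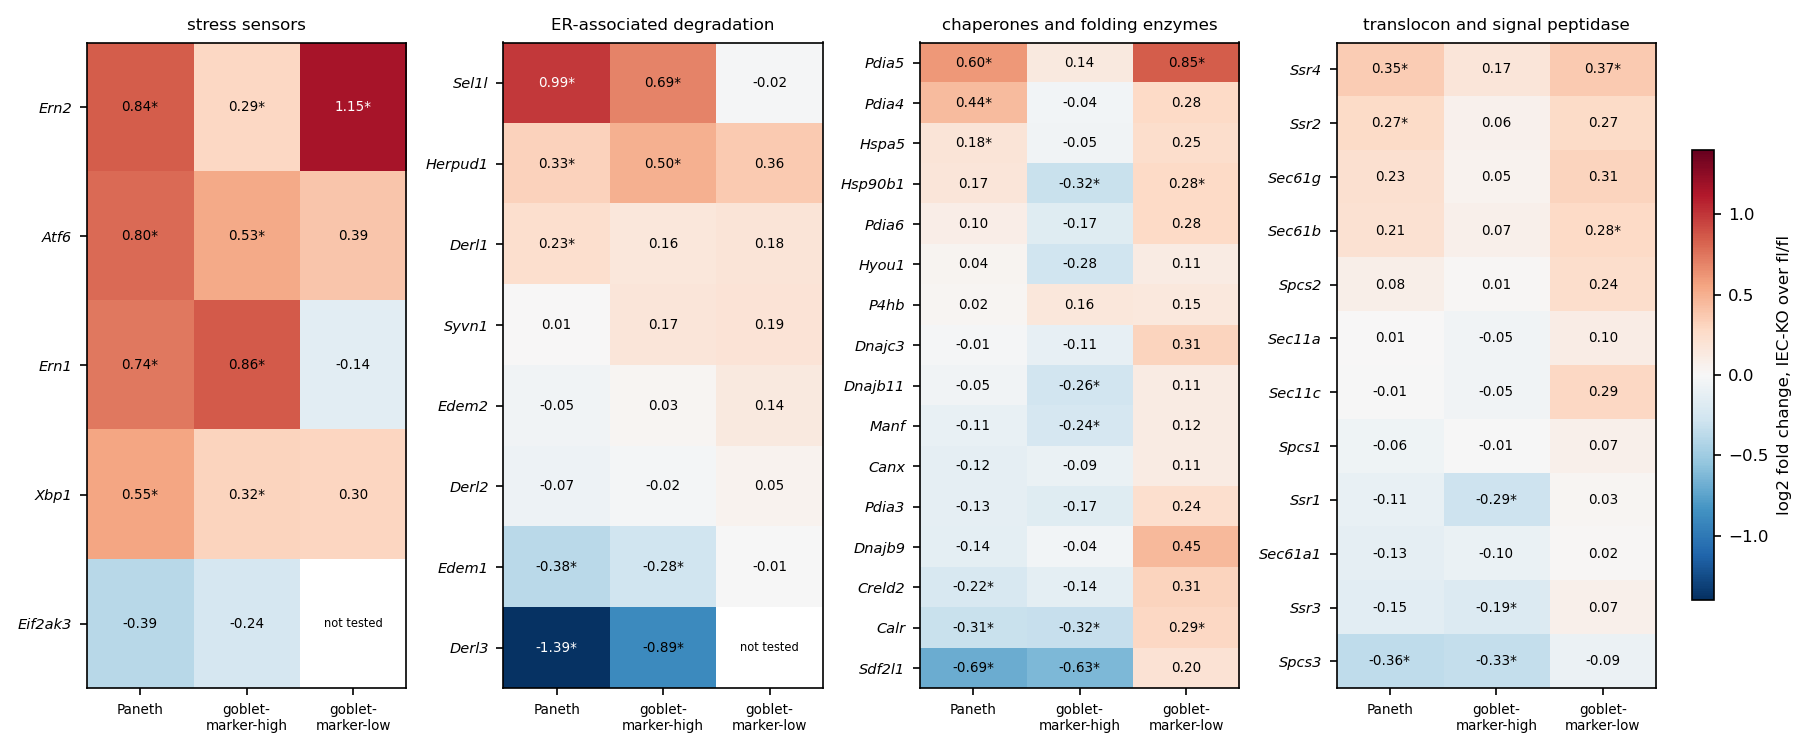
Log2 fold change (IEC-KO over fl/fl, TMM-scaled within each set of cells; red higher, blue lower) of the 41 members in the Paneth class and in goblet-marker-high and goblet-marker-low cells of the others class; an asterisk marks an adjusted p under 0.05 by edgeR. *Calr* is at -0.31, -0.32 and 0.29 and *Sel1l* at 0.99, 0.69 and -0.02 in the 3 sets.

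Within each genotype the Paneth class was set against the others class of the same libraries. In fl/fl 23 members were higher in the Paneth class (56.1%, with 27.7% of 13039 genes) and 10 lower (24.4%, with 30.7%), and in IEC-KO 20 were higher (48.8%, with 24.7%) and 12 lower (29.3%, with 25.5%). With the others class limited to goblet-marker-high cells, 15 members were higher and 22 lower in fl/fl, beside 3362 and 3665 of 12875 genes. In IEC-KO 19 members were then lower, beside 3233 genes. In fl/fl all 8 degradation genes were higher in the Paneth class, from *Derl2* (log2 0.18, SE 0.05) to *Derl3* (1.59, SE 0.17), with *Edem2* at 0.84, *Herpud1* at 0.80 and *Sel1l* at 0.70 between them. *Dnajb9* (ERdj4, which keeps IRE1 in check; log2 1.24, SE 0.06) and *P4hb* (0.92, SE 0.04) led the chaperones, and *Hsp90b1* (-0.74), *Pdia5* (-0.72) and *Pdia4* (-0.71) were lower. *Ern1* was higher in the Paneth class (1.12, SE 0.11) and *Ern2* lower (-0.43, SE 0.05). These ratios stand relative to the middle of all genes. By library size alone the median gene was 1.94 lower on the log2 scale in the Paneth class of fl/fl and 1.17 lower in that of IEC-KO. On that scale 40 and 38 of the members were called lower, as were 12064 and 11790 of all 13039 genes.

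The change with genotype differed between the 2 classes for 18 members, of which 5 had the more positive change in the Paneth class (12.2%, with 11.0% of 13039 genes) and 13 the more negative (31.7%, with 11.2%). *Sel1l* had the largest positive difference (0.37, SE 0.07, adjusted p = 1.33e-05): its ratio of Paneth class to others class was 0.70 in fl/fl and 1.07 in IEC-KO on the log2 scale. *Hsp90b1* (0.31), *Pdia4* (0.30), *Ern2* (0.27) and *Pdia5* (0.20) went the same way, and each of these 4 was lower in the Paneth class than in the others class, so that in IEC-KO the classes lay closer together. Of the other sensors, *Xbp1*, *Ern1* and *Atf6* did not pass the test of the difference. *Derl3* (-0.73, SE 0.28, adjusted p = 0.043), *Herpud1* (-0.33, SE 0.06) and *Sdf2l1* (-0.31, SE 0.06) had the largest negative differences past the test. With the others class limited to goblet-marker-high cells, however, 14 members had a more positive and 1 a more negative change in the Paneth class. Of all 12875 genes tested there, 1276 and 1255 were called. With the whole others class DESeq2 called 2 and 4 members, beside 439 and 390 of the 6317 genes it tested.

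**Figure D5:**
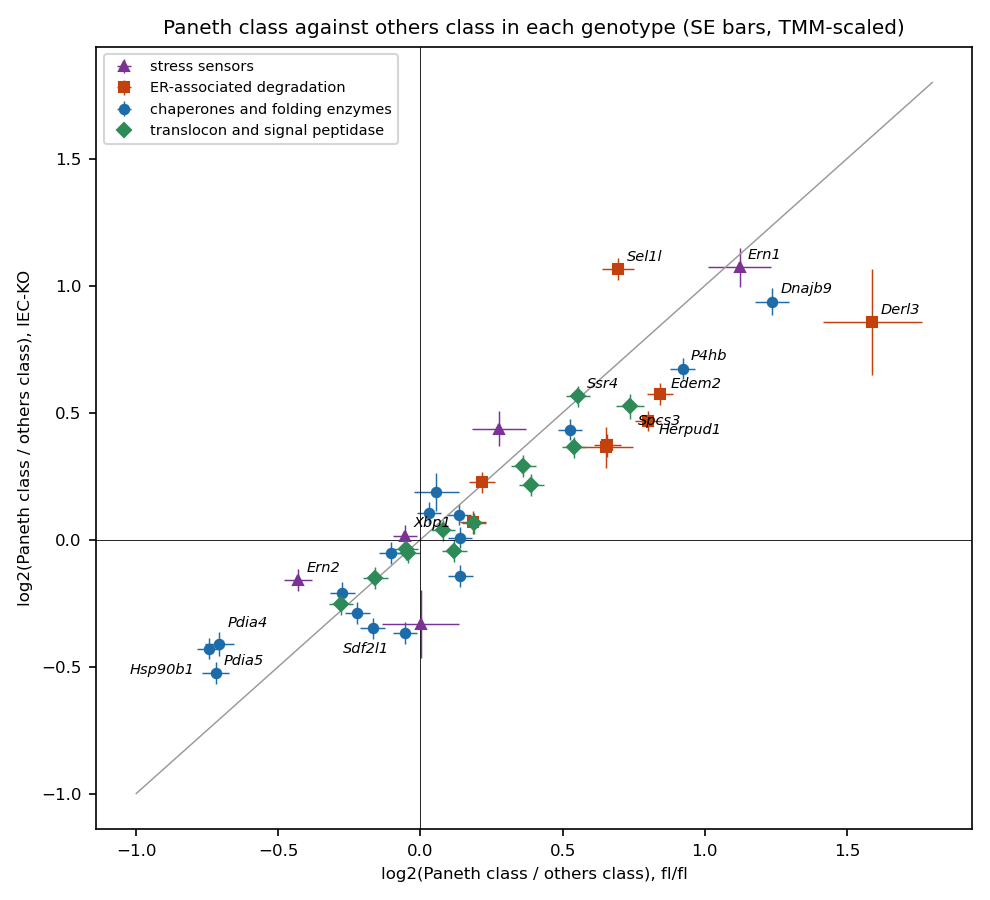
Log2 ratio of the Paneth class to the others class in fl/fl (x axis) and in IEC-KO (y axis) for the 41 members, with SE bars (TMM-scaled; the line marks equal ratios). *Sel1l* lies above the line (0.70 and 1.07), and *Derl3* (1.59 and 0.86), *Herpud1* and *Edem2* below it.

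Some IEC-KO Paneth class cells carry UMIs of *Try5*, a trypsinogen. With each cell thinned to 5000 UMIs, 289 and 302 cells had at least 1 *Try5* UMI and 1689 and 2034 had none. Of the 40 members tested between them by edgeR none passed, and 2 had an unadjusted p under 0.05: *Xbp1* (log2 0.23, SE 0.09, adjusted p = 0.80) and *P4hb* (-0.11, SE 0.05, adjusted p = 0.89). In this comparison 0.145% of 8302 genes were called higher and 0.132% lower.

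Further lists hold genes that work beside the members. Of 24 genes of oxidative folding and proline isomerization, 7 rose (29.2%) and 6 fell (25%) in the Paneth class, beside 20.2 and 19.8% of all genes. *Ero1l*, the oxidase that recharges disulfide isomerases, rose from 10.3 and 9.72 to 37.2 and 36.8 CPM (log2 1.89, SE 0.07), and its relative *Ero1lb* fell from 5.60 and 5.42 to 2.54 and 2.62 (log2 -1.09, SE 0.11), also by library size alone (-0.47). *Dnajc1* was 0.73 higher, and *Fkbp14*, at -1.51, rests on 17 and 14 against 4 and 3 UMIs, a call that DESeq2 did not make (adjusted p = 0.322). Of 18 further degradation genes 8 rose (44.4%) and 4 fell (22.2%), with *Erlec1*, a lectin of the HRD1 complex, at 9.64 and 9.14 against 23.1 and 20.5 CPM (log2 1.21, SE 0.08), *Faf2* at 0.37, *Selk* at -0.45 and the segregase *Vcp* at -0.32. Of 21 tested genes of signal recognition, translocation and glycosylation 8 rose (38.1%) and 3 fell (14.3%), with *Sec62* (log2 0.82) and the oligosaccharyltransferase subunit *Krtcap2* (0.75) highest and *Tram1* (-0.60) and *Dad1* (-0.33) lowest. By library size alone *Selk*, *Vcp*, *Tram1* and *Dad1* were above 0.

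Of 16 stress transcription factors and effectors 11 rose in the Paneth class (68.8%, beside 20.2% of all genes) and 13 in the others class (81.2%, beside 17.0%). *Atf4* encodes the transcription factor of the PERK branch and of the response to amino acid lack. It had 54.0 and 50.7 CPM in the Paneth class of fl/fl and 111 and 108 in IEC-KO (log2 1.07, SE 0.07, adjusted p = 5.84e-11). *Ddit3*, the factor CHOP, had 8.25 and 6.98 against 93.9 and 76.9 (log2 3.48, SE 0.10). Its exons overlap those of a second entry named *Ddit3* on the same strand and of 2 genes on the opposite strand. Among the members, exons of *Hsp90b1*, *Manf*, *Pdia4* and *Sec11a* also overlap another entry on the same strand, and those of several others overlap genes on the opposite strand. How such overlaps and strands were counted is not given in the sources used here. *Trib3*, a pseudokinase downstream of *Atf4* and *Ddit3*, had 52 and 39 UMIs in fl/fl and 2364 and 3533 in IEC-KO, or 0.66 and 0.48 against 63.2 and 52.3 CPM (log2 6.65, SE 0.13, adjusted p = 7.45e-20). *Chac1*, which breaks down glutathione, was 3.79 higher. In the others class *Trib3* (log2 6.78), *Chac1* (5.11), *Ddit3* (3.45) and *Atf4* (1.12) were higher as well.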

How the data were processed

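The authors deposited raw UMI counts of 27998 genes for each cell barcode that their cell calling kept, with no normalization. The submitters' processing notes name Cell Ranger 2.1.1 and mm10, whereas the study's methods give another Cell Ranger release; the counts were used as deposited. No cell had under 200 genes, so all 26498 were kept, doublets included, and any 2 libraries shared at most 132 barcodes. UMIs were summed per library and class and tested with edgeR 4.0.16 under R 4.3.3 (TMM, filterByExpr, glmQLFit and glmQLFTest, adjusted p under 0.05). Standard errors were derived from the F statistic (absolute log2 change divided by its root). Paneth and others classes were compared in 1 model with library as a block. DESeq2 1.42.0 was an alternative. Gene positions are from GENCODE M21 (GRCm38). The scripts were first tested on simulated data.

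All 41 members could be named. Values in every library are given for the sensors and, per group, for the 5 members with the largest change past the threshold in the Paneth class; of each further list, the 2 largest rises and falls. Members, lists and tests were chosen with earlier results of these data known. Genotypes share replicate numbers, but deviations of libraries with the same number did not correlate (given with the alternatives), so the numbers were not used as pairs. The planned split of the others class at 1% goblet markers left no cell on the low side, and 4% was used instead. With 2 libraries against 2 an exact permutation test cannot reach the threshold, so shares carry no test. Median depth is given with each class, and the effect of thinning where it changed a call or a count; the goblet-marker split was not thinned.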

Additional observations from a re-analysis of the deposited data

Results flagged for a closer look

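The members below had a change with genotype that differed between the Paneth class and the others class by the interaction test of edgeR (adjusted p under 0.05, 2 libraries per genotype, values as the change in the Paneth class minus the change in the others class on the log2 scale). The more negative change in the Paneth class was that of *Derl3* (-0.73), *Herpud1* (-0.33), *Sdf2l1* (-0.31), *Dnajb9* (-0.30), *Edem1* (-0.29), *Creld2* (-0.28), *Edem2* (-0.27), *P4hb* (-0.25), *Spcs3* (-0.21), *Calr* (-0.18), *Sec61a1* (-0.18), *Sec11c* (-0.17) and *Spcs1* (-0.16). The more positive change was that of *Sel1l* (0.37), *Hsp90b1* (0.31), *Pdia4* (0.30), *Ern2* (0.27) and *Pdia5* (0.20). By library size alone the difference of all genes had a median of 0.746, and the 13 negative differences, each smaller in size than this shift, were above 0. The calls also depend on the cells compared. With the others class limited to goblet-marker-high cells, 6 of these calls held, 10 no longer passed and 2 (*Calr* and *Sec11c*) turned. With the whole others class DESeq2 kept 6 of these calls and lost 11.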

How the results depend on the processing

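TMM without Defa genes changed no count of members by over 1.5 times. By library size alone the members called higher and lower in IEC-KO numbered 38 and 1 in the Paneth class (8795 and 454 of 12492 genes). In the others class they numbered 8 and 11 (1172 and 3787 of 12377). In goblet-marker-high cells 17 fell (2515 of 12006 genes), and in goblet-marker-low ones 3 rose (186 of 10086). On that scale no member was higher in the Paneth class than in the others class (edgeR, 0 higher). In fl/fl and IEC-KO 40 and 38 members were lower there, as were 12064 and 11790 of all 13039 genes. The change differed between classes for 40 members higher and 0 lower, beside 9551 and 67 of all genes. Named genes (the members and *Dad1*, *Selk*, *Tram1* and *Vcp* of the further lists) past 0 in the other direction by library size alone in the Paneth class were *Calr* (0.31), *Canx* (0.50), *Creld2* (0.40), *Dad1* (0.29), *Derl2* (0.55), *Dnajb11* (0.56), *Dnajb9* (0.48), *Dnajc3* (0.60), *Edem1* (0.24), *Edem2* (0.56), *Eif2ak3* (0.23), *Manf* (0.51), *Pdia3* (0.48), *Sec11c* (0.61), *Sec61a1* (0.49), *Selk* (0.17), *Spcs1* (0.56), *Spcs3* (0.26), *Ssr1* (0.51), *Ssr3* (0.47), *Tram1* (0.016) and *Vcp* (0.30), and the differences between the classes were *Calr* (0.58), *Creld2* (0.48), *Derl3* (0.022), *Dnajb9* (0.47), *Edem1* (0.48), *Edem2* (0.49), *Herpud1* (0.43), *P4hb* (0.51), *Sdf2l1* (0.45), *Sec11c* (0.59), *Sec61a1* (0.58), *Spcs1* (0.60) and *Spcs3* (0.55). That scale shifts the median of all genes by 0.62 and that of the differences by 0.746, so smaller falls turn by construction.

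With cells thinned to 2000 UMIs, 6 members rose in the Paneth class (699 of 7420 genes) and 9 in the others class (806 of 10599). The direction in the Paneth class then turned for the members and *Faf2* of the further lists given here: *Derl2* (0.11), *Dnajc3* (0.0049), *Faf2* (-0.11), *P4hb* (-0.11), *Pdia4* (-0.13), *Sec11a* (-0.015), *Spcs2* (-0.024) and *Syvn1* (-0.29). It also turned for *Sec11a* (-0.0023) and *Syvn1* (-0.0065) with at least 10 UMIs in every library, *Sec11c* (0.0075) and *Syvn1* (-0.031) with 1 lower UMI limit for all libraries, *Dnajc3* (0.0025) and *Syvn1* (-0.086) without the 5% of cells with most UMIs, *P4hb* (-0.021) and *Syvn1* (-0.050) at a Defa share of 20% or more, *Hyou1* (-0.053) at 40% or more, and *Sec11c* (0.0029) with DESeq2. With the others class limited to goblet-marker-high cells, the differences of *Calr* (0.014) and *Sec11c* (0.044) turned. Of the members 14 had a higher and 1 a lower change there (1276 and 1255 of 12875 genes). In the Paneth class of fl/fl 15 were higher and 22 lower (3362 and 3665 genes), and 19 were lower in that of IEC-KO (3233 genes). With the whole others class DESeq2 called 2 higher and 4 lower changes (439 and 390 of 6317 genes). In the others class 2 members fell without a filter (2149 of 17612 genes) or with at least 10 UMIs in every library (2024 of 11281). With 1 lower UMI limit 3 fell (1707 of 11478). Goblet limits of 2, 6 and 10% gave 3, 14 and 21 higher members in goblet-marker-low cells, beside 74 of 9645, 612 of 10596 and 1607 of 11494 genes.

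Leaving out each library in turn gave, for higher and lower members, 8 to 14 and 5 to 10 in the Paneth class, 8 to 18 and 1 to 5 in the others class, 5 to 11 and 5 to 13 in goblet-marker-high cells, 1 to 14 (higher only) in goblet-marker-low cells, 19 to 23 and 7 to 10 for the classes in fl/fl, 16 to 19 and 9 to 12 in IEC-KO, and 3 to 5 and 6 to 12 for the difference. The counts that moved by over 1.5 times were those without the first IEC-KO library (10 lower in the Paneth class, 5 in the others class), without the second (3 lower in the others class, 11 higher in goblet-marker-high cells, 6 lower differences), without the first fl/fl library (9 higher in the others class, 5 lower in goblet-marker-high cells, 3 higher differences) and without the second (8 higher and 2 lower in the others class, 7 lower differences), besides those of goblet-marker-low cells. A library alone in its group was assumed to vary like the others. The number of all genes called changed in each of these fits too, so the counts of members do not stand for the members alone. Without either fl/fl library fewer of all genes were called, higher and lower, in every comparison listed here. Without either IEC-KO library fewer of all genes were called in the Paneth class, and more in goblet-marker-high and goblet-marker-low cells. Members whose direction turned in the Paneth class without 1 library were, with their range, *Dnajc3* (-0.10 to 0.078), *Edem2* (-0.18 to 0.081), *Hyou1* (-0.12 to 0.15), *Sec11a* (-0.010 to 0.038), *Sec11c* (-0.090 to 0.083), *Spcs1* (-0.15 to 0.042), *Spcs2* (-0.021 to 0.19) and *Syvn1* (-0.093 to 0.14); none of them passed the test to begin with. Where no value shows it, the cause of these changes was not tested.

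Deviations of libraries of the same number had a correlation of 0.0087 in the Paneth class and 0.055 in the others class. With 2 libraries per genotype the value is the same for both numbers by construction. It cannot exclude a batch shared by libraries of the same number. A replicate block gave 2 lower members in the others class (2338 of 12377 genes) and 17 higher in goblet-marker-low cells (443 of 10086). With it *Hspa5* in the Paneth class lost its call by edgeR (adjusted p = 0.0832). In every alternative but library size, 5 of the 12 higher calls of the Paneth class (*Ern2*, *Herpud1*, *Pdia5*, *Sel1l* and *Xbp1*) and 4 of the 6 lower ones (*Calr*, *Derl3*, *Sdf2l1* and *Spcs3*) held. Depth limits *Derl3*, *Eif2ak3* and *Fkbp14* most, with under 200 UMIs in each library of the Paneth class.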
